A study of Mus musculus with 18 samples.

Results

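CLK and BMAL1 form the DNA-binding heterodimer that starts transcription in the mammalian circadian clock, and the sites described here are those that the authors' site list for mouse liver places in introns or gene bodies. They were taken from the authors' deposited list of 3217 CLK:BMAL1 sites by its location class. The class Gene_body/Intron held 1412 sites, called intron sites below, and the class Gene_body held 211, called gene-body sites. Together these are 1623 sites. No source used here says what separates the classes, beyond their names, or which gene annotation they rest on. The other classes were TSS, for transcription start sites, with 583 sites, and intergenic within 10 kb or beyond 10 kb.

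In the series, CLK was immunoprecipitated from crosslinked liver chromatin of adult C57BL/6 mice, titled WT and aged 3 to 6 months, kept in cycles of 12 h of light and 12 h of dark. The chromatin was cut with micrococcal nuclease (MNase), which digests DNA between nucleosomes, or by sonication. The 18 libraries form 6 groups of 3, titled WT28, WT29 and WT30 in each; the labels do not say whether a number marks the same animal across groups. At ZT06 and at ZT22, where ZT counts hours from lights on, there were CLK ChIP libraries from either kind of chromatin and input libraries, not immunoprecipitated, from the sonicated kind. The antibody was a goat polyclonal one against CLK. The deposited signal is, for each library, a mean over all sites and a mean over a set named for the top 400 peaks, which was not used here. Neither gives a value for intron or gene-body sites alone.

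CLK:BMAL1 binds E-box elements and activates, among others, the Period, Cryptochrome and Rev-erb genes, whose products feed back on the clock. In liver it also drives rhythmic metabolic genes. Introns and intergenic DNA hold many of the enhancers through which transcription factors act on promoters at a distance, while a peak at a transcription start site lies on the promoter itself.

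For the list as a whole, the mean signal within 100 bp of the site midpoint was compared with that at least 1000 bp away, as a ratio within each library, with the profile's positions read as 10 bp apart and centred on the midpoint, which no source used here states. In CLK ChIP on sonicated chromatin this ratio ran from 3.05 to 3.31 over the 3 libraries at ZT06 and from 1.20 to 1.75 at ZT22. The input of sonicated chromatin gave 1.24 to 1.29 at ZT06 and 1.19 to 1.28 at ZT22. Set side by side by number at ZT22, ChIP and input gave 1.33 and 1.28 for WT28, 1.20 and 1.19 for WT29, and 1.75 and 1.22 for WT30, so the largest gap at that time came from WT30. In MNase-digested chromatin the centre was below the flanks in each library, at 0.88 to 0.93 at ZT06 and 0.78 to 0.95 at ZT22. These ratios describe all 5 classes mixed, of which intron and gene-body sites make up 50.5%.

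Each site carries a number from 1 to 3217 in its identifier, and both classes were spread along the whole range of these numbers. The median number was 1641 for intron sites (exact 95% interval of the median 1570 to 1731; quartiles 801 and 2404) and 1453 for gene-body sites (1295 to 1711; quartiles 802 and 2282), beside 1609 over all sites and 1507 in the TSS class. The intervals of the 2 classes overlap. A gene-body site had the lower number in 52.5% of all pairs of a gene-body and an intron site, and in 52.1% of pairs on the same chromosome. Among the first 100 numbers were 43 intron sites and 6 gene-body sites. Among the first 400 they were 42.8% (37.8 to 47.8%) and 7.0% (4.70 to 9.96%) of the sites, against 43.9% and 6.56% of the whole list. The last 417 numbers held 42.4% and 5.04%. The lowest share of intron sites in any bin was 40.5%, for numbers 801 to 1200, and the highest 49%, for numbers 2001 to 2400, where the interval of 44 to 54% begins just above the overall share. The sources used here do not say what the number ranks.

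**Figure D1:**
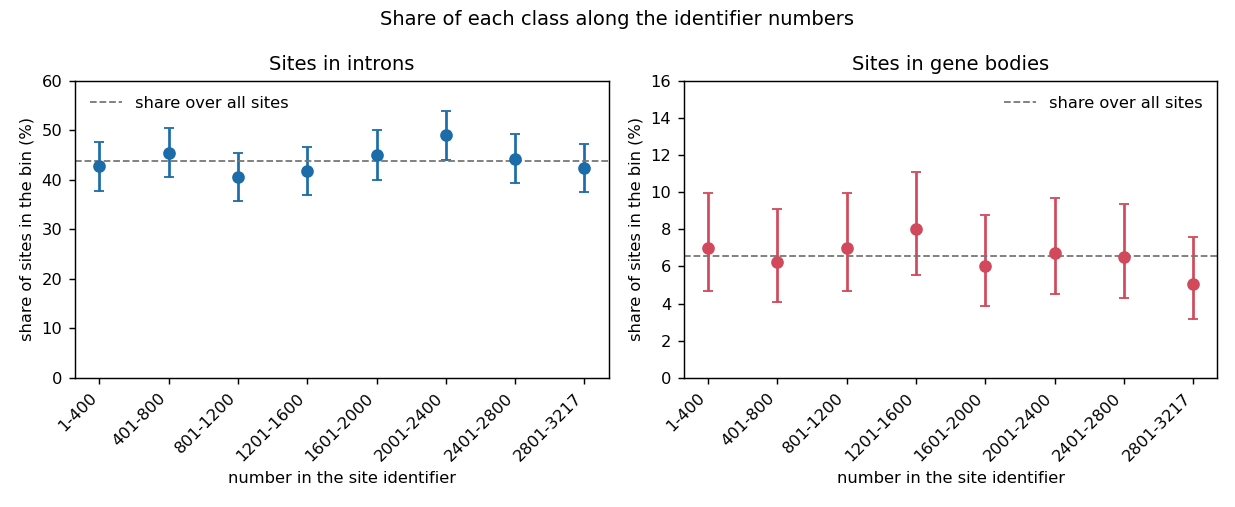
Share of the sites in each bin of identifier numbers (x axis) that belong to the intron class (left) or the gene-body class (right), in percent; points are shares, bars exact 95% binomial intervals, and the dashed line is the share over all sites. The intron points lie between 40.5% and 49% and the gene-body points between 5.04% and 8.0%, with no steady rise or fall along the numbers.

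The intron sites with the lowest numbers lay on chromosomes 2, 7 and 11. Site Koike_CLKBMAL1_P0005, at chr7:52962811-52963430 in mm9, was 619 bp wide and its midpoint lay 2720 bp from that of the TSS-class site Koike_CLKBMAL1_P0001, the first of the list. Koike_CLKBMAL1_P0009, at chr2:92263791-92264240, was 449 bp wide, with its nearest TSS-class site, Koike_CLKBMAL1_P0027, 10.4 kb away. Koike_CLKBMAL1_P0010 and Koike_CLKBMAL1_P0011, at chr11:98635071-98635331 and chr11:98635311-98635760, overlap each other and lie 1480 and 1146 bp from the TSS-class site Koike_CLKBMAL1_P0007. The fifth, Koike_CLKBMAL1_P0012 at chr7:56607161-56607840, stood apart from these: its nearest site of any class was 41.9 kb away and its nearest TSS-class site 3647 kb away. It was also the widest intron site, at 679 bp.

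The gene-body sites with the lowest numbers began later in the list. The first was Koike_CLKBMAL1_P0020, at chr19:23210011-23210590, 579 bp wide and 5.06 kb from a TSS-class site. Koike_CLKBMAL1_P0022, at chr17:8541841-8542260, was 65.8 kb from one, and Koike_CLKBMAL1_P0059, at chr9:107577311-107577730, 87.5 kb. Koike_CLKBMAL1_P0060, at chr1:155544711-155545220, had its nearest TSS-class site 7178 kb away, and Koike_CLKBMAL1_P0077, at chr19:36805691-36806210, 5.36 kb away. Low numbers thus occurred both close to and far from TSS-class sites in either class. Across sites, Spearman's rho between the number and the distance to the nearest TSS-class site was -0.01 for the 1412 intron sites and 0.13 for the 211 gene-body sites.

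Peaks of the 2 classes had nearly the same width. The median was 309 bp for intron sites (upper quartile 379 bp, range 100 to 679 bp) and 310 bp for gene-body sites (upper quartile 389 bp, range 140 to 579 bp), with 309 bp over all sites. The exact 95% intervals of these medians ended at 310 and 330 bp and overlapped. Peaks of 400 bp or more made up 17.8% of intron sites and 22.3% of gene-body sites, a difference of 4.43 percentage points whose 95% Newcombe interval, -1.07 to 10.8, includes 0. Peaks under 200 bp made up 5.59% and 7.11%, a difference of 1.51 points (-1.54 to 5.94). Over all sites, 18.2% of peaks were of 400 bp or more and 6.12% under 200 bp. Width fell with the identifier number in both classes, with rho of -0.51 over intron and -0.60 over gene-body sites, against -0.52 over all sites. Sites share chromosomes and neighbours, so these are descriptions of 1 list. For numbers 1 to 400 the median width was 379 bp (370 to 410) in introns and 414 bp (350 to 499) in gene bodies. For numbers above 2800 it was 229 bp in both, with an interval of 219 to 239 bp in introns.

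The narrowest intron sites were Koike_CLKBMAL1_P3210, at chr9:43893871-43893971, 100 bp wide, and Koike_CLKBMAL1_P2295, at chr5:115971571-115971691, 120 bp wide. The narrowest gene-body sites were Koike_CLKBMAL1_P3023, at chr9:107577181-107577321, 140 bp wide, and Koike_CLKBMAL1_P3090, at chr17:56647401-56647570, 169 bp wide. Next to the widest sites named above, Koike_CLKBMAL1_P0012 and Koike_CLKBMAL1_P0020, stood Koike_CLKBMAL1_P0028 among intron sites, at chr15:101934351-101935020 and 669 bp wide, and Koike_CLKBMAL1_P0086 among gene-body sites, at chr9:119841511-119842090 and 579 bp wide. These 4 wide sites have numbers under 100, and the 4 narrow ones have numbers from 2295 to 3210.

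**Figure D2:**
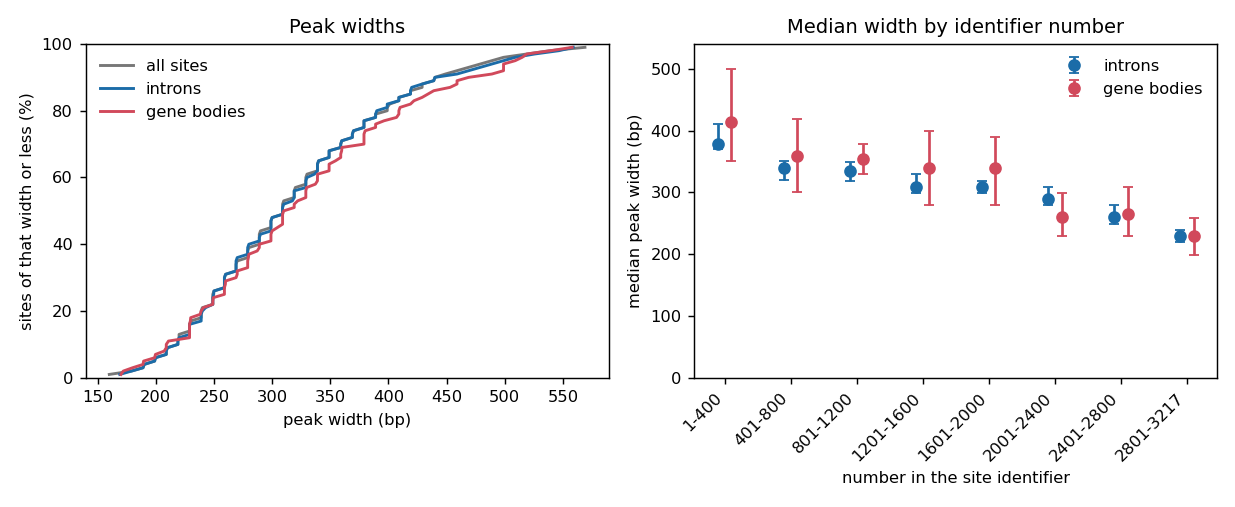
Left, cumulative share of sites (y axis, percent) up to a given peak width (x axis, bp) for intron, gene-body and all sites; right, median width in bp by bin of identifier numbers, with exact 95% intervals of the median. The 3 curves run together up to the median of about 309 bp, and both classes fall to 229 bp in the last bin.

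Both classes occurred on all 20 chromosomes with sites, and intron sites were unevenly shared among them. On chromosome 14, 66 of 113 sites were intron sites, 58.4% (exact 95% interval 48.8 to 67.6%). On chromosome 6 it was 89 of 166, 53.6% (45.7 to 61.4%), and on chromosome 4 it was 120 of 230, 52.2% (45.5 to 58.8%). On chromosome 11 the share was the lowest among the autosomes, 88 of 249, 35.3% (29.4 to 41.6%). These were the 4 of 19 autosomes whose interval did not hold the overall share of 43.9%. No correction was made for looking at 19 chromosomes. Gene-body shares ran from 3.08% on chromosome 13 (4 of 130 sites) to 9.13% on chromosome 4 (21 of 230), and the interval held the overall 6.56% on all 19. On chromosome X, 3 of 10 sites were intron sites and 1 was a gene-body site, too few to compare. Chromosome lengths and gene content of mm9 were not used here, so these are shares of the listed sites and not densities.

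**Figure D3:**
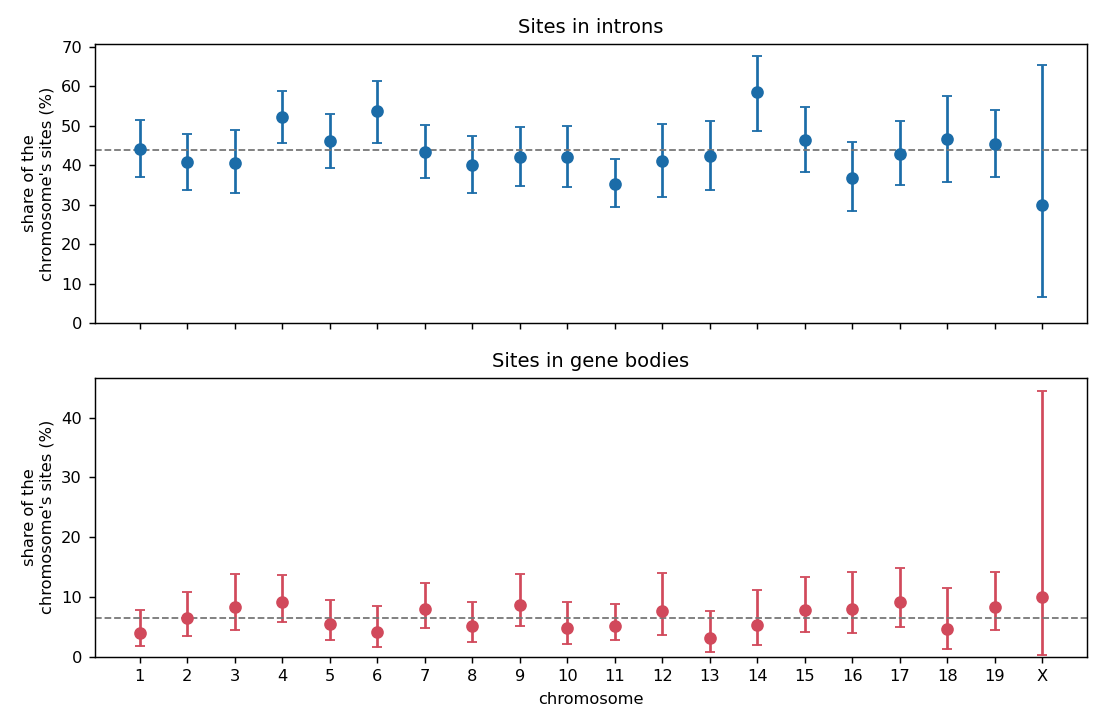
Share of each chromosome's CLK:BMAL1 sites (y axis, percent) in the intron class (top) and the gene-body class (bottom), with exact 95% binomial intervals; the dashed line is the share over all chromosomes. Chromosomes 4, 6 and 14 lie above the line for intron sites and chromosome 11 below it.

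Spacing to the nearest site of any class was alike in its middle. Midpoints were a median of 42.2 kb apart for intron sites (exact 95% interval 34.4 to 49.9 kb; quartiles 5.04 and 197 kb) and 44.3 kb for gene-body sites (26.4 to 71.2 kb; quartiles 5.23 and 150 kb), beside 44.5 kb over all sites. A neighbour within 10 kb was present for 31.7% of intron and 31.8% of gene-body sites, beside 30.2% of all sites. The classes differed among the most isolated sites. No neighbour within 1000 kb was found for 78 intron sites, 5.52%, and for 3 gene-body sites, 1.42%, a difference of -4.10 percentage points (95% Newcombe interval -5.72 to -1.22). Over all sites the share was 5.10%, close to that of intron sites, and the gene-body share rests on 3 sites. A neighbour within 200 kb was present for 75.3% of intron sites, 82.0% of gene-body sites and 75.9% of all sites. Between the 2 classes this was a difference of 6.71 points (0.57 to 11.9).

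In every class, the nearest site was of the same class more often than that class's share of the list. This was thus not particular to intron and gene-body sites. The same-class share was 54.8% for intergenic sites beyond 10 kb, 31.97% for those within 10 kb and 27.96% in the TSS class. Of the 1412 intron sites, 867 had another intron site as their nearest, 61.4% (exact 95% interval 58.8 to 64.0%), whereas intron sites are 43.9% of the list. The share was 88.5% when the nearest site lay within 3 kb, 79.2% from 3 to 10 kb, 62.1% from 10 to 50 kb and 45% from 50 to 200 kb. Up to 10 kb, none of these nearest sites was intergenic beyond 10 kb, a class whose name bears on such distances. For gene-body sites that class made up 2.5% within 3 kb and 11.1% from 3 to 10 kb. The 43.9% is therefore not a full reference at short range. How far the class definitions set these shares was not tested. Of the gene-body sites, 45 of 211 had a gene-body site nearest, 21.3% (16 to 27.5%), against 6.56% of the list. Their most frequent nearest class was the intron class, at 34.6%. Within 3 kb the share was 62.5% (25 of 40 sites), from 3 to 10 kb 29.6% (8 of 27), below the 33.3% with a TSS-class site nearest, and from 10 to 50 kb 7.14%. With only neighbours at least 10 kb away considered, the same-class share was 51.8% for intron sites and 11.4% for gene-body sites. With the lowest-numbered site of each group of overlapping regions alone, it was 54.3% and 11.3%. Sites within a few kb can lie in the same intron or exon. Whether they do was not tested, since no gene model of mm9 was used.

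**Figure D4:**
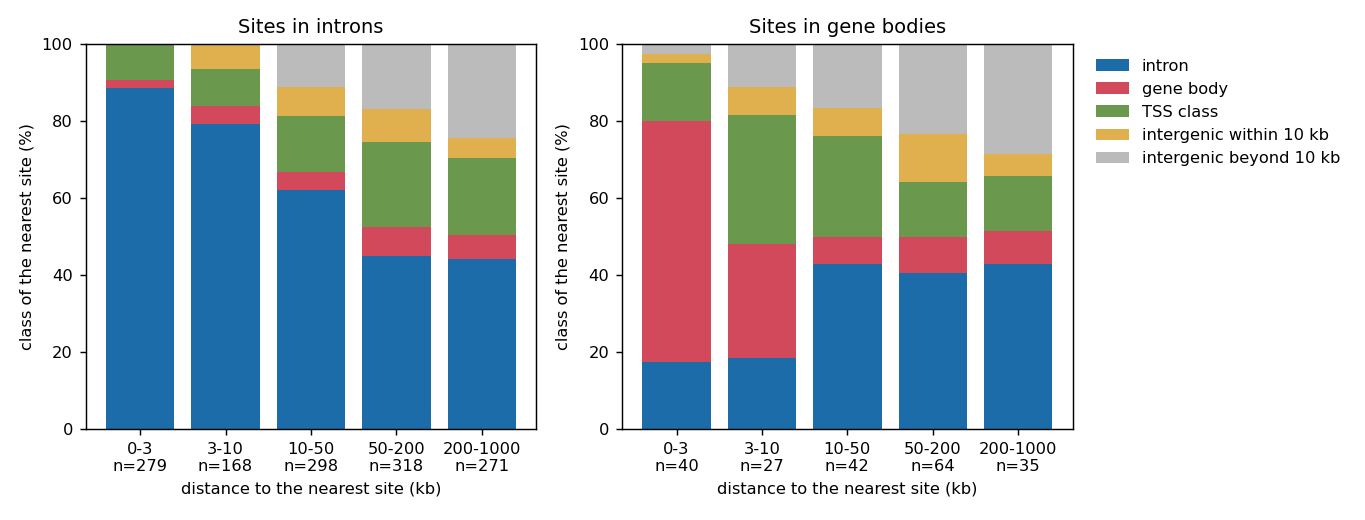
Class of the nearest site (stacked bars, percent) for intron sites (left) and gene-body sites (right) by the distance between midpoints in kb, with the number of sites n under each bar. Nearest sites of the same class make up 88.5% of the first intron bar and 62.5% of the first gene-body bar, and 44.3% and 8.57% of the bars from 200 to 1000 kb.

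The list gives each site a surrounding region of 3 kb, and sites whose regions overlap were counted as a group. In such groups were 19.8% of intron sites and 18.96% of gene-body sites, a difference of -0.80 points (95% Newcombe interval -5.99 to 5.36). Both lie close to the 19.6% over all sites. The share was 19.4% in the TSS class, 26.2% for intergenic sites within 10 kb and 16.9% beyond 10 kb. Of the groups with intron sites, 108 held intron sites alone and 26 held a TSS-class site. The gene-body sites fell into 25 groups, of which 7 held gene-body sites alone and 9 held a TSS-class site. The largest groups with intron sites had 5 sites. One, on chromosome 11, joined Koike_CLKBMAL1_P0072, Koike_CLKBMAL1_P0010 and Koike_CLKBMAL1_P0011 to the TSS-class sites Koike_CLKBMAL1_P0007 and Koike_CLKBMAL1_P0038, so that all 5 have numbers under 100. The other, on chromosome 9 from 43891521 to 43894301, was made of intron sites alone, with the numbers 117, 2038, 2509, 2800 and 3210, and its nearest TSS-class site was at least 234.9 kb away. The largest group with gene-body sites had 4 sites on chromosome 19: the intron site Koike_CLKBMAL1_P2185 and the gene-body sites Koike_CLKBMAL1_P0020, Koike_CLKBMAL1_P0277 and Koike_CLKBMAL1_P2281, at chr19:23209351-23211460. Neighbours in a group can thus have numbers far apart or close together.

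Read along each chromosome, intron sites formed 643 stretches uninterrupted by another class, 310 of them of a single site. The longest had 14 intron sites in a row on chromosome 7, over 14.7 Mb. Stretches of 11 covered 1.76 Mb on chromosome 15, from 57721091 to 59484851, and 12.2 and 3.82 Mb on chromosome 5. Gene-body sites formed 172 stretches, none longer than 4 sites.

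Gene-body sites lay closer to TSS-class sites than intron sites did. The median distance between midpoints was 551 kb (exact 95% interval 369 to 765 kb; quartiles 87.1 and 1843 kb) for gene-body sites and 947 kb (817 to 1032 kb; quartiles 217 and 2830 kb) for intron sites. It was 709 kb over all sites, 521 kb from one TSS-class site to the nearest other, and 497 kb for intergenic sites within 10 kb, so gene-body sites were not alone in being closer than the whole list. A TSS-class site lay within 10 kb of 26 gene-body sites, 12.3% (8.21 to 17.5%), and of 60 intron sites, 4.25% (3.26 to 5.44%), a difference of 8.07 percentage points (95% Newcombe interval 4.12 to 13.3). The share was 5.81% over all sites and 8.5% for intergenic sites within 10 kb. Among intergenic sites beyond 10 kb, a class whose name bears on such distances, it was 0.14% (1 of 717), which lowers the share over all sites. Within 1 kb the share was 3.32% for gene-body sites (1.34 to 6.72%), an interval that holds the 2.83% over all sites, and 0.78% for intron sites. Within 100 kb it was 26.5% for gene-body sites, 15.7% for intron sites and 19.02% over all sites. TSS-class sites had another TSS-class site within 1 kb in 11.5% of cases, within 10 kb in 12.9% and within 100 kb in 26.8%. None of these was below the gene-body share. Beyond 1000 kb were 37.4% of gene-body sites and 48.9% of intron sites, with 43.6% over all sites. Between gene-body and intron sites this was a difference of -11.4 points (-18.2 to -4.24). The gene-body median was the lower one on 11 of the 17 chromosomes with at least 5 sites of each class. With these 17 chromosomes weighted equally the mean of the medians was 929 kb for gene-body sites and 968 kb for intron sites, so the gap between medians narrows. The shares at short distance changed little: intron sites weighted to the chromosomes of the gene-body sites had a TSS-class site within 10 kb in 4.37% of cases. These intervals count sites as independent, which neighbouring sites are not.

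**Figure D5:**
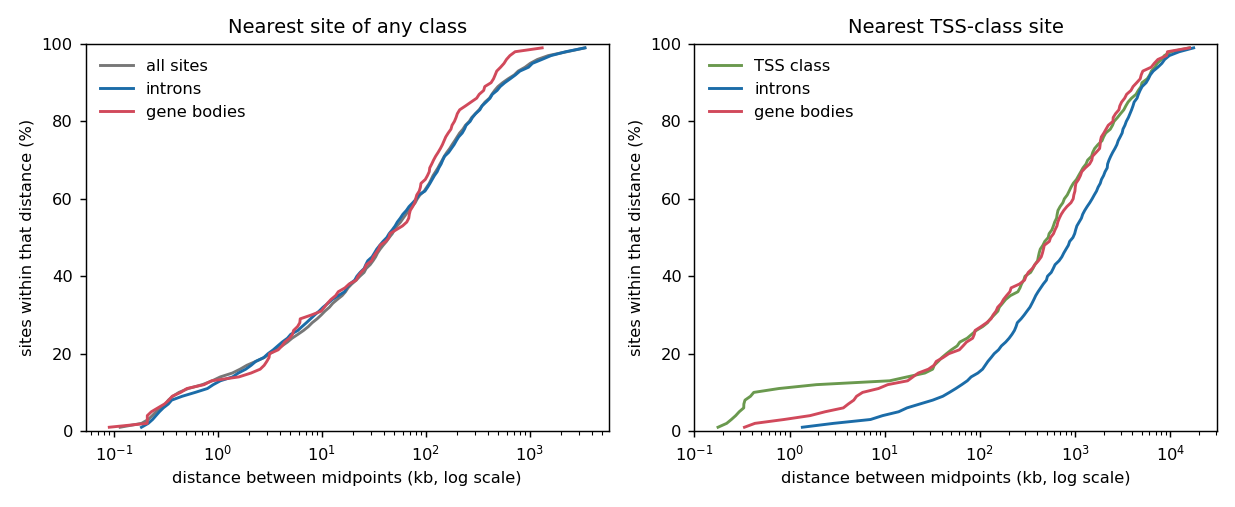
Cumulative share of sites (y axis, percent) by the distance between midpoints to the nearest site of any class (left) and to the nearest TSS-class site (right), in kb on a log scale, from the 1st to the 99th percentile. On the left the curves of intron and all sites run close together, and on the right the intron curve lies to the right of the gene-body curve, with medians of 947 and 551 kb.

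The extremes show the range. The intron sites closest to a TSS-class site were Koike_CLKBMAL1_P1769, at chr13:73468611-73468830, with 294.5 bp between midpoints, and Koike_CLKBMAL1_P2277, at chr3:95685771-95686061, 360 bp from Koike_CLKBMAL1_P0004. The closest gene-body sites were Koike_CLKBMAL1_P1094, at chr9:107490141-107490341, 220 bp away, and Koike_CLKBMAL1_P0322, at chr5:138696761-138697111, 0.265 kb from Koike_CLKBMAL1_P0033. At the far end, the intron site Koike_CLKBMAL1_P0822, at chrX:7304201-7304600, was 64254 kb from the nearest TSS-class site of its chromosome, and Koike_CLKBMAL1_P0527, at chr14:121507651-121507900, 45977 kb. The farthest gene-body sites, Koike_CLKBMAL1_P2738 at chr12:8570031-8570470 and Koike_CLKBMAL1_P1744 at chr15:59617501-59618000, were 16797 and 16789 kb away. Chromosomes X and 14 hold 2 and 13 TSS-class sites, and such distances depend on how many there are.

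Where an intron site lay near a TSS-class site, the TSS-class site more often had the lower identifier number. Within 10 kb this was so for 40 of 60 intron sites, 66.7% (exact 95% interval 53.3 to 78.3%), with a median number of 1029 for the TSS-class sites and 1754 for the intron sites. These 60 share 49 TSS-class sites. Within 50 kb it was so for 92 intron sites, 63.4% (55.1 to 71.3%). Over all pairs of a TSS-class and an intron site, wherever they lie, the share was 53.3%, just below the lower bound of the first interval and below the second. Within 3 kb it was so for 19 of 29 intron sites, 65.5% (45.7 to 82.1%), an interval that holds the 53.3%. The pairs were not compared by any test. For gene-body sites it was 14 of 26 within 10 kb, 53.8% (33.4 to 73.4%), and 50.9% over all pairs. Within 50 kb it was 23 of 43 gene-body sites, 53.5% (37.7 to 68.8%). The widths of the paired sites were close, with medians of 300 bp for the TSS-class and 325 bp for the intron sites within 10 kb.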

How the data were processed

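The authors deposited a list of 3217 sites for the whole series, with other whole-number values (genome positions in bp on mm9) and a location class, and a table in a unit of signal, the mean profile of each library over sets of sites. The site identifiers begin with Koike_CLKBMAL1, while the libraries of the series are CLK ChIP and input. How sites were called, numbered and classed, and how the signal was scaled, are not given in the sources used here. mm9, CASAVA 1.7 and Bowtie are named per the submitters' processing notes. Profiles of 8 library names match no sample and were not used. The profile set named for 3216 sites was read as positions spaced by 10 bp around the midpoint.

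Width is end minus start, and distances run between midpoints on the same chromosome. Medians have exact order-statistic 95% intervals, shares exact (Clopper-Pearson) 95% intervals, and differences of shares Newcombe intervals, in Python 3.11.15 with scipy 1.17.1 and statsmodels 0.14.6. They cover the spread of sites, not measurement error, and the sources used here do not give read depth. No test was run: sites are not replicates, and no value per library was used for a class. The code was checked on simulated data. In each class the sites named are the 5 with the lowest numbers, the 2 widest, narrowest, nearest to and farthest from a TSS-class site, and the largest groups of overlapping regions; the stretches and other TSS-class sites named were added after their values were seen. The classes and measures were chosen with earlier results of these data known. No gene names, sequences or motifs are given, since the reference tables used are of another build, GRCm38.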

Additional observations from a re-analysis of the deposited data

How the results depend on the processing

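No paired analysis was possible because the results, the profile ratios included, are descriptions with no test and the site list holds no value per library. Of 70 alternative values for the 2 classes and the profile, 47 stayed within the 95% interval of the value reported, or within 1 SD for the profile. Among the 23 that did not, sites at least as wide as the overall median had median numbers of 1181 (introns) and 1085 (gene bodies), and sites numbered up to 1608 had median widths of 340 and 359 bp. The mean width of intron sites was 320 bp. Without overlapping regions the spacing was 104 and 88.9 kb and the intron distance to a TSS-class site 1052 kb. To the same class the spacing was 107 kb for introns and 1025 kb for gene bodies, a class with fewer sites. Means of these skewed distances were 239 and 145.3 kb for spacing and 2281 and 1593 kb to TSS-class sites. To TSS-class sites numbered up to 1608 the medians were 2088 and 1019 kb. With chromosomes weighted equally the gene-body median was 929 kb, beside 968 kb for introns. Same-class neighbours at least 10 kb away made up 51.8% and 11.4%, and with 1 site per group of overlapping regions 54.3% and 11.3%; both settings were chosen after seeing the data. With the centre within 50 bp, the ratio of centre to flanks was 0.87 in MNase-digested and 3.29 in sonicated ChIP at ZT06. Leaving out 1 replicate kept all 6 group means within 1 SD, which with 3 libraries per group could not have come out otherwise. Those values are counted among the 47 and say nothing on how stable the ratios were. The E-box share was not run, since no genome of mm9 was used.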

Other observations

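Peak edges in the list sit on a grid. The start of each of the 1623 intron and gene-body sites ends in the digit 1, while the end position ends in 0 for 1290 sites and in 1 for 333. Peaks of the second kind were narrower, with a median of 280 bp against 319 bp, and 270 against 319 bp over all sites. They made up 20.3% (exact 95% interval 18.3 to 22.5%) of intron sites and 21.8% (16.4 to 28%) of gene-body sites, and 27.4% (23.9 to 31.3%) of TSS-class sites. The share was 22.2% over all sites, 22.8% for intergenic sites within 10 kb and 21.5% beyond 10 kb.

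Some neighbouring peaks abut. The next peak started exactly 10 bp after the end of the last in 32 pairs of intron sites and 3 pairs of gene-body sites, of 69 such pairs in the whole list. Sites in any such pair made up 4.46% of intron sites, 4.27% of gene-body sites and 4.17% of all sites. The 72 intron and gene-body sites in any such pair had a median width of 240 bp, against 309 bp for the rest. Over all sites the widths were much the same, 250 and 309 bp. Another 17 pairs of intron sites and 5 pairs of gene-body sites overlapped, of 66 overlapping pairs in the whole list.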
